A study of Mus musculus with 22 samples.

Results

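Zinc-treated GRDim mice were set against untreated GRWT mice in 6 bulk RNA-seq libraries of small intestine, 3 from each condition. The comparison addresses which genes still differ from the untreated wild-type level when the mutant mouse has received zinc. The libraries were chosen by 1 measured value, a level of Myh11, the smooth muscle myosin heavy chain, above 100 CPM (the gene's read counts relative to all counts of its library), which 6 of the 11 libraries of both conditions and 12 of the 22 libraries of the series met. Among the 6, Myh11 lay between 308 and 463 CPM, and the closest library of these conditions that was left out held 20.5 CPM, so no library lay near the threshold.

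All mice were FVB/N females, 8 to 14 weeks old. GRDim animals were homozygous for a point mutation in the dimerisation loop of the glucocorticoid receptor (GR), present in every cell of the body, and GRWT animals were homozygous wild-type. GRDim zinc mice drank 25 mM ZnSO4 for 7 days, and GRWT water mice drank plain water. Both genotype and treatment therefore differ between the groups, and GRDim water and GRWT zinc libraries with the same Myh11 level, 3 each, are given beside the results to show each factor alone. Comparisons with them share libraries with the one described here and are no independent evidence.

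The tissue labels did not follow the muscle content. The 3 GRDim zinc libraries (replicates 1 to 3) and GRWT water replicate 1 were labelled ileum, whereas GRWT water replicates 4 and 5 were labelled intestinal epithelial cells (IEC) and yet held as much Myh11 as the ileum ones. Conversely, the muscle-poor libraries of both conditions, with 5.76 to 20.5 CPM of Myh11, were GRDim zinc replicates 4 to 6, labelled IEC, and GRWT water replicates 2 and 3, labelled ileum. The label is hence confounded in part with the groups, and an exchange of labels cannot be told apart from an unequal dissection. The 6 libraries held 13415583 to 15221001 counts, so that 3 counts, the most that a count of 0 allows, correspond to 0.197 to 0.224 CPM; such floors and the intervals below cover counting error only. Epithelial genes were abundant in all 6, with a summed level of 12 markers of 24016 to 25104 CPM in GRWT water and 24919 to 25726 CPM in GRDim zinc, and the bile acid carrier of the ileum, Fabp6, stood at 6985, 8384 and 9045 and at 8688, 7374 and 4429 CPM. The GR gene itself, Nr3c1, measured 296, 296 and 312 CPM in GRWT water and 304, 314 and 269 CPM in GRDim zinc (log2 change -0.028 ± 0.073 SE, adjusted p = 0.828). A point mutation need not alter this level, so the value does not check the genotype.

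GR is a steroid-activated transcription factor that binds DNA as a dimer to induce many metabolic and anti-inflammatory genes, and the Dim mutation weakens this dimerisation. Zinc that enters the enterocyte is sensed by MTF1, which induces the metallothioneins, small cysteine-rich proteins that bind the metal, through metal response elements. Interferons signal through STAT and IRF factors that bind interferon-stimulated response elements (ISREs) in front of genes for antigen presentation, intracellular defence and cell death, a programme that gut microbes keep active in the intestinal epithelium.

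Promoters of the zinc and interferon genes that are described first are shown at the outset. In the RefSeq promoter table of GRCm38.p6, the 250 bases before the gene start were searched on both strands. An ISRE-like motif, written GAAANNGAA, was present in 5 of the 5 immunity-related GTPases that have an entry (6 in the list), in 5 of the 5 guanylate-binding proteins with an entry (11 in the list) and in 8.18% of all 27025 genes of the table. Among genes called higher it was found in 35 of 214 (16.4%), and among genes called lower in 16 of 228 (7.02%), calls being defined below. Metal response elements, written TGCACNC or TGCGCNC, were present in 3 of the 5 promoters of the metallothionein and zinc sensor list (Mt1, Mt2 and Mt4) and in 23.8% of all genes. These shares describe letters in a window and are not binding sites. Capitals mark the motif, all sequences run 5′ to 3′ towards the gene start, and the letters of the ISRE-like motif and of the metal response element cannot overlap each other.
Igtp (chr11:58199306-58199555, plus strand): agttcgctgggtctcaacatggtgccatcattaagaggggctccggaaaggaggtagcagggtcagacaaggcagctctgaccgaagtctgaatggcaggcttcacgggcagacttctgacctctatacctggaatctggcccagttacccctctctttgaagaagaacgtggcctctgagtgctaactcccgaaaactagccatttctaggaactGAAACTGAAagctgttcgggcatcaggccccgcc
Tgtp2 (chr11:49064213-49064462, minus strand): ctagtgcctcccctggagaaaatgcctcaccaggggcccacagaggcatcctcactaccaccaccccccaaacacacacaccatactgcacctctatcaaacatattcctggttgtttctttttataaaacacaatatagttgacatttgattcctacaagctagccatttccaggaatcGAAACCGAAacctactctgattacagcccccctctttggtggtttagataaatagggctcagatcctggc
Cxcl9 (chr5:92328080-92328329, minus strand): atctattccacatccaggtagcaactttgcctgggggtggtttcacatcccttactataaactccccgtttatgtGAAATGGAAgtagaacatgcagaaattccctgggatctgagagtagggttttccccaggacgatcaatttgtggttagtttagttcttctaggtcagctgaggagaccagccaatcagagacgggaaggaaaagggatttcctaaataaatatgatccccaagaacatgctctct
Mt1 (chr8:94178839-94179088, plus strand): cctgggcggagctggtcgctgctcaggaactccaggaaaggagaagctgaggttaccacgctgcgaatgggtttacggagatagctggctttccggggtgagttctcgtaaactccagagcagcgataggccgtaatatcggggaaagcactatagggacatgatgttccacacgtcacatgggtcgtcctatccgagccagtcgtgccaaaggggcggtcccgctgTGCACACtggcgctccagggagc
Mt2 (chr8:94172368-94172617, plus strand): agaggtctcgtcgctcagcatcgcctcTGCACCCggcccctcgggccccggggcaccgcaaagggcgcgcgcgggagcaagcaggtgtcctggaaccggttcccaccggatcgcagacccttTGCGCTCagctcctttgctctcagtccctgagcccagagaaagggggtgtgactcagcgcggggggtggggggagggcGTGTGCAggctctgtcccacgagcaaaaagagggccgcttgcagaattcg
Mt4 (chr8:94136954-94137203, plus strand): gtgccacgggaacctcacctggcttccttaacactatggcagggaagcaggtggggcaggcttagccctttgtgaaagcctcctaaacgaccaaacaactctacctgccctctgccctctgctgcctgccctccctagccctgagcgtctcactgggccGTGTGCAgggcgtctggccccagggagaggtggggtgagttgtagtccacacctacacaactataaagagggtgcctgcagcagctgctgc
The first 3 belong to interferon-inducible GTPases of chromosome 11, Igtp and Tgtp2, and to a T cell chemokine, each with 1 copy of the motif, and the others to the metallothioneins that rose, with 1, 3 and 1 copies.

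Of 15947 genes tested with edgeR, 359 (2.25%) were called higher and 368 (2.31%) lower, 4.56% in either direction, in GRDim zinc than in GRWT water, at an adjusted p below 0.05 and a log2 change beyond 0.8. Levels are given as CPM after TMM scaling over the 12 muscle-rich libraries, with mean ± SD for n = 3, and log2 changes are those of GRDim zinc over GRWT water with their standard error (SE). The study's text gives group sizes in mice, but no label ties a library to an animal, and p-values measure the spread between these libraries. With no fold limit, 18.1% of all genes had an adjusted p below 0.05, 9.29% with a positive and 8.84% with a negative change, and 32.4% had an unadjusted p below 0.05. In 721 of the 727 called genes the 3 values of each group did not overlap. The calls rest on the same values and favour such genes, and the share over all genes was not counted. Immunoglobulin and T cell receptor gene segments contributed 58 of the genes called higher and 1 of those called lower, of 224 segments tested. The 12 genes with the largest rise and the 12 with the largest fall, leaving out segments and provisional names, are described below within their groups. Of the genes named below, Nlrc5, Mt2, Mtf1, Spsb4, Hspa1a, Plet1, B3gnt7, Cd3e, Ciita, Cxcl10, Cxcl11, Duoxa2, Gbp2, Irf1, Irf7, Mmp7, Psmb8, Ripk1, Slc30a10, Tap1 and Hsd3b3 have exons that overlap a gene on the other strand, and Igtp, Irgm2, Tgtp1, Gbp4, Gbp6, Gbp7, Gbp8, Cd74, Herc6, Mzb1 and Top2a exons that overlap a gene on the same strand, and their counts are uncertain to that extent.

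Metallothioneins accounted for 3 of the 4 largest rises. Mt1 (ENSMUSG00000031765, chr8:94179082-94180327, plus strand, mm10) stood at 75.6, 41.5 and 29.3 CPM in GRWT water and at 1442, 1753 and 1356 CPM in GRDim zinc. No value of one group came near the other, and the log2 change was 4.96 ± 0.36 (SE, adjusted p = 6.11e-05). The mean in GRDim water was 73.3 ± 13.9 CPM and in GRWT zinc 2261 ± 388 CPM, so the level was high in both zinc conditions. Mt2, its neighbour (chr8:94172664-94173568, plus strand), measured 9.75, 4.39 and 2.22 CPM against 200.1, 306 and 238 CPM (log2 change 5.50 ± 0.50 SE, adjusted p = 0.000245). Without GRWT water replicate 1 the log2 change of Mt2 was 6.20. Its exons overlap a gene on the other strand, whose reads could not be separated as the strand setting of the counting is not stated. Mt4, best known from stratified epithelium, held 1, 0 and 0 counts in GRWT water and 403, 283 and 354 counts in GRDim zinc, a ratio of 1054 after allowing for library size (95% interval from counting 189 to 41690, adjusted p = 0.000312). The fitted log2 change was 9.61 ± 0.97 SE, and 11.5 without GRWT water replicate 1, which held the only count of its group. Mt3, the metallothionein of the nervous system, measured 0.876 ± 0.270 and 0.925 ± 0.566 CPM and was not called (log2 change 0.081, adjusted p = 0.917).

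Genes of zinc transport gave few calls. Slc39a4, which encodes the apical importer ZIP4 (ENSMUSG00000063354, chr15:76612383-76617384, minus strand), fell from 222, 285 and 279 CPM to 60.7, 48.3 and 53.5 CPM, with groups that did not overlap and a log2 change of -2.28 ± 0.17 (SE, adjusted p = 3.56e-05). In GRDim water its mean was 166 ± 12.3 CPM and in GRWT zinc 42.7 ± 10.1 CPM. Slc30a2, an exporter that loads zinc into vesicles and that is prominent in Paneth cells, rose from 95.4, 75.3 and 75.8 CPM to 171, 213 and 140.2 CPM (log2 change 1.09 ± 0.16 SE, adjusted p = 0.00151). Its GRDim water mean, 51.2 ± 6.59 CPM, lay below GRWT water and its GRWT zinc mean, 292 ± 17.5 CPM, above GRDim zinc. Of the other 7 exporters and 11 importers tested, none was called, against 4.56% of all genes. The furthest was Slc30a10, a manganese exporter by its known function, with 57.1 ± 4.59 against 35.1 ± 12.1 CPM (log2 change -0.70, adjusted p = 0.0918). Of all 8 exporters and 12 importers tested, 4 and 6 had an unadjusted p below 0.05, against 32.4% of all genes. The sensor Mtf1 had a log2 change of 0.20, adjusted p = 0.0456, inside the fold limit. In the plot of zinc genes all GRDim zinc values lie on the side of the GRWT zinc values.

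**Figure D1:**
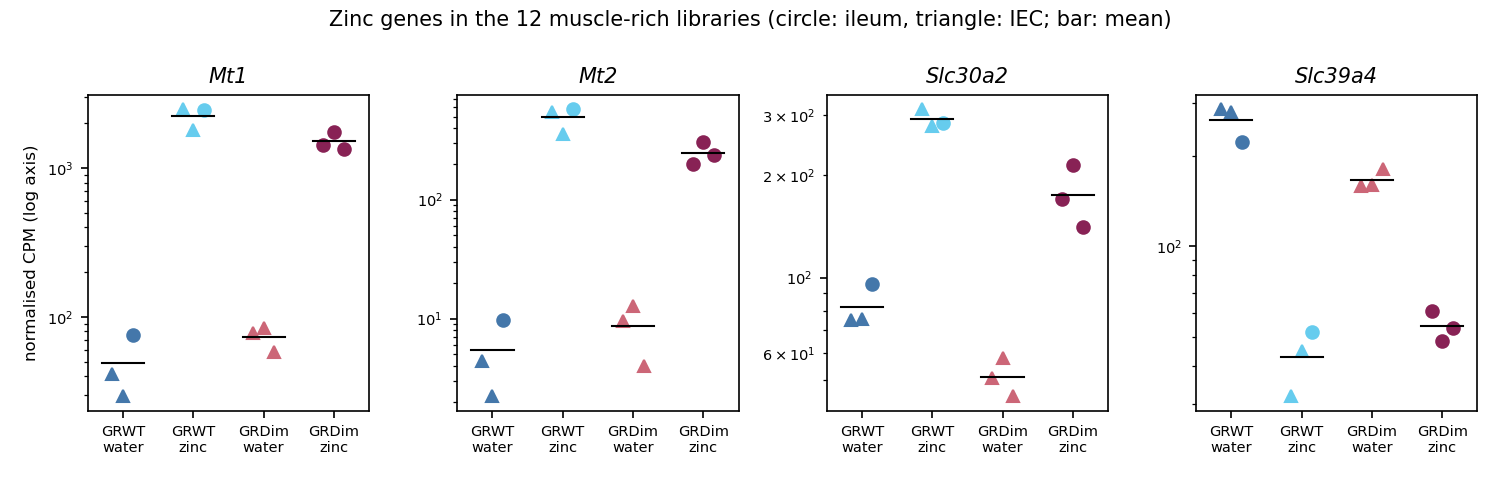
Normalised CPM on a log axis of Mt1, Mt2, Slc30a2 and Slc39a4 in the 12 muscle-rich libraries, with circles for libraries labelled ileum, triangles for IEC and a bar for the mean of 3. Mt1 lies at 29.3 to 75.6 CPM in GRWT water and at 1442, 1753 and 1356 CPM in GRDim zinc, and Slc39a4 at 222, 285 and 279 and at 60.7, 48.3 and 53.5 CPM.

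The immunity-related GTPases, which coat and disrupt vacuoles around intracellular microbes, rose as a family: 6 of 6 were called higher, with log2 changes of 1.04 to 2.77, against 2.25% of all genes. Igtp (ENSMUSG00000078853, chr11:58199556-58207591, plus strand) went from 21.4, 27.4 and 31.7 CPM to 147, 156 and 200.0 CPM, without overlap (log2 change 2.64 ± 0.21 SE, adjusted p = 6.59e-05). GRDim mice on water were higher still, at 297 ± 27.2 CPM, and GRWT mice on zinc stood at 18.5 ± 4.91 CPM. Irgm2, a regulator of the effector GTPases, rose from 38.2, 42.6 and 59.8 CPM to 167, 181 and 196 CPM (log2 change 1.95 ± 0.17 SE, adjusted p = 6.73e-05). The related Irgm1 (1.04, adjusted p = 0.000404) and Iigp1 (1.96, adjusted p = 0.00181) rose too. Tgtp1 (0.353, 0.646 and 0.742 against 2.18, 3.36 and 6.42 CPM, log2 change 2.77 ± 0.46 SE, adjusted p = 0.00198) and Tgtp2 (1.91, 3.10 and 3.11 against 10.01, 10.9 and 16.1 CPM) are nearly identical copies, so the split of reads between them is uncertain, as reads that map to both were not counted.

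Guanylate-binding proteins, which act on the same vacuoles and on bacteria in the cytosol, were called higher in 6 of 11 (all genes 2.25%) and lower in none, with a median log2 change of 0.96 (all genes -0.0045). Gbp8 rose from 6.57, 8.72 and 7.86 CPM to 28.8, 36.3 and 33.8 CPM (log2 change 2.09 ± 0.12 SE, adjusted p = 8.68e-08) and Gbp6 from 2.97, 6.07 and 3.71 CPM to 30.3, 25.1 and 19.9 CPM (log2 change 2.54 ± 0.26 SE, adjusted p = 0.000151). Both had separate groups. Gbp7 (1.19, adjusted p = 4.87e-06) and Gbp4 (0.96, adjusted p = 0.0228) rose less, Gbp10 and Gbp11 rose from levels below the 3-count floor, and the abundant Gbp2 moved from 42.4 ± 5.15 to 56.96 ± 7.04 CPM, inside the fold limit (log2 change 0.42, adjusted p = 0.0315). Members of this family share long stretches of sequence, and their read counts are uncertain to that extent.

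Upstream of these genes, Ifng, the cytokine itself, held 1, 3 and 1 counts in GRWT water and 14, 14 and 11 in GRDim zinc, a ratio of 7.91 (95% interval from counting 3.11 to 25.7). Socs1, the feedback inhibitor of the receptor, rose (1.47, adjusted p = 0.000117), as did Irf8 (0.98, adjusted p = 9.58e-07). The receptor chains and kinases were not called, Ifngr1 being 257 ± 10.8 against 218 ± 4.53 CPM (log2 change -0.24, adjusted p = 0.00686) and Jak2 222 ± 7.88 against 206 ± 15.7 CPM (-0.11, adjusted p = 0.238). Irf1, an early target of the pathway, moved from 214 ± 28.5 to 333 ± 25.7 CPM, below the fold limit (log2 change 0.64, adjusted p = 0.000123). In all, 6 of 12 genes of this list were called higher (all genes 2.25%) and none lower.

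Chemokines that draw T cells through their receptors followed. Cxcl9, a CXCR3 ligand, measured 6.36, 9.04 and 7.42 CPM against 16.6, 19.9 and 20.8 CPM (log2 change 1.33 ± 0.24 SE, adjusted p = 0.00413), with no overlap, and its GRDim water mean was 46.9 ± 12.7 CPM. Ccl5, a chemokine made by cytotoxic T cells, rose from 14.3, 22.9 and 21.8 to 67.5, 76.1 and 64.6 CPM (log2 change 1.82 ± 0.14 SE, adjusted p = 1.05e-05). Cxcl10 rose as well (1.04, adjusted p = 0.0240), whereas Cxcl11 was not called (0.38, adjusted p = 0.288).

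Nlrc5, the transactivator of MHC class I genes (ENSMUSG00000074151, chr8:94434356-94527272, plus strand), was among the 12 largest rises, from 3.82, 5.68 and 4.45 CPM to 31.5, 34.7 and 36.9 CPM (log2 change 2.88 ± 0.25 SE, adjusted p = 5.94e-05). Genes of antigen processing rose with it: 11 of 11 had an adjusted p below 0.05 with a positive change, against 9.29% of all genes, and 6 of them passed the fold limit, against 2.25%. The peptide transporter Tap1 went from 33.7, 50.8 and 43.8 to 132, 149 and 160.5 CPM (log2 change 1.78 ± 0.17 SE, adjusted p = 0.000151), and the immunoproteasome subunit Psmb8 from 59.5, 75.9 and 65.4 to 196, 196 and 203 CPM (log2 change 1.57 ± 0.094 SE, adjusted p = 2.00e-07). Both genes overlap exons on the other strand. B2m, the light chain of MHC class I, was 1698 ± 111 against 2777 ± 55.4 CPM, inside the fold limit (log2 change 0.71, adjusted p = 2.36e-05).

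For MHC class II, 7 of 9 genes were called higher (all genes 2.25%), and 2 with the smooth muscle sum as a covariate, along with their transactivator Ciita (44.8 ± 13.4 against 115 ± 6.88 CPM, log2 change 1.35 ± 0.25 SE, adjusted p = 0.00743). The alpha chain H2-Aa stood at 344, 644 and 463 CPM in GRWT water and at 951, 1027 and 948 CPM in GRDim zinc, which did not overlap (log2 change 1.01 ± 0.21 SE, adjusted p = 0.0112). The invariant chain Cd74 rose to 2536 ± 158 from 1339 ± 393 CPM. H2-Oa and H2-Ob, which are mostly expressed in B cells, were not called.

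Ubd, which encodes the ubiquitin-like modifier FAT10 and is induced by interferon gamma and TNF, rose more than any of these genes. Its values were 1.77, 7.17 and 2.89 CPM in GRWT water and 119, 172 and 176 CPM in GRDim zinc (chr17:37193892-37196095, plus strand; log2 change 5.27 ± 0.49 SE, adjusted p = 0.000262), and its log2 change was 6.06 without GRWT water replicate 4. Its means were 275 ± 43.5 CPM in GRDim water and 3.94 ± 3.23 CPM in GRWT zinc.

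Of 40 antiviral genes of the type 1 interferon response, 5 were called higher and 1 lower, against 2.25% and 2.31% of all genes. An adjusted p below 0.05 was reached by 12, against 18.1% of all genes, and the median log2 change was 0.20. Ifit1bl1 was the largest of the 5, at 38.7, 59.3 and 59.9 against 206, 205 and 222 CPM (log2 change 2.00 ± 0.13 SE, adjusted p = 2.99e-06). Ifit2 (1.27, adjusted p = 0.00708), Ifit1 (1.19, adjusted p = 0.0108), Rsad2 (1.13, adjusted p = 0.00358) and Herc6 (1.02, adjusted p = 0.00882) followed. Other members gave no call, such as Isg15 at 12.6 ± 4.15 against 14.9 ± 1.15 CPM (0.23, adjusted p = 0.663), Irf7 (-0.22, adjusted p = 0.600) and Mx1 (-0.37, adjusted p = 0.359). Oas2, a sensor of double-stranded RNA, fell from 4.24, 3.94 and 1.78 to 1.35, 0.980 and 0.988 CPM (log2 change -1.59 ± 0.47 SE, adjusted p = 0.0365), a call lost without GRWT water replicate 1 or 4 or any 1 GRDim zinc library, and Oas1a and Oas1g had negative values that did not pass the test (-0.72, adjusted p = 0.165; -0.92, adjusted p = 0.0754).

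Genes of necroptosis, a lytic death carried out by MLKL, and of other forms of cell death included 3 called higher of 14 (all genes 2.25%). All 14 had a positive change, against 7859 of 15947 over all genes, and 9 an adjusted p below 0.05 (all genes 18.1%). Zbp1, the nucleic acid sensor that engages RIPK3, rose from 12.2, 15.1 and 11.3 CPM to 68.2, 78.9 and 80.3 CPM (chr2:173206612-173218923, minus strand; log2 change 2.55 ± 0.18 SE, adjusted p = 2.07e-05). No values overlapped, and the GRDim water mean was 118 ± 4.31 CPM against 12.6 ± 3.99 CPM in GRWT zinc. Mlkl, the executioner, rose from 13.3, 14.1 and 13.9 to 27.8, 29.1 and 32.7 CPM (log2 change 1.11 ± 0.091 SE, adjusted p = 1.78e-06). Casp4, encoding the inflammatory caspase-11 of pyroptosis, rose from 39.1, 34.9 and 37.3 to 86.1, 80.8 and 72.9 CPM (log2 change 1.11 ± 0.067 SE, adjusted p = 8.91e-08). Ripk3, the kinase that joins ZBP1 to MLKL, was 27.8, 28.9 and 27.5 against 32.7, 39.9 and 46.3 CPM, a difference with an adjusted p of 0.00498 but below the fold limit (log2 change 0.50 ± 0.11). Ripk1 (0.14, adjusted p = 0.0851) and Casp8 (0.15, adjusted p = 0.125) did not pass the test.

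**Figure D2:**
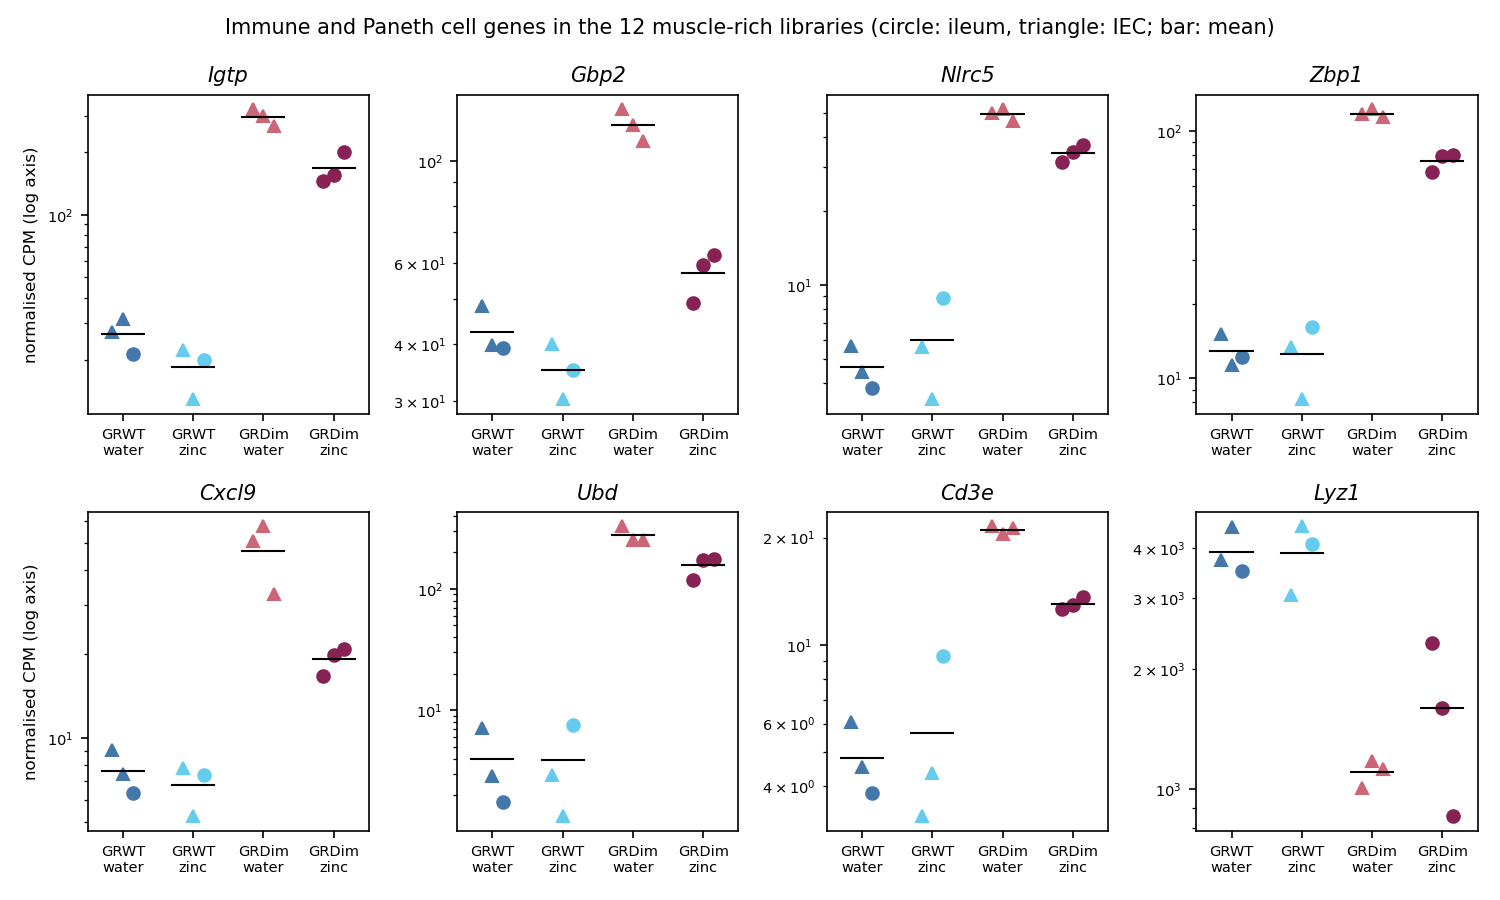
Normalised CPM on log axes of 8 genes in the 12 muscle-rich libraries, circles for ileum, triangles for IEC, bars for the mean of 3. For Igtp, Nlrc5, Zbp1, Cxcl9, Ubd and Cd3e the GRDim zinc values lie between GRWT water and GRDim water (Igtp means 26.8, 167 ± 28.5 and 297 ± 27.2 CPM), and for Lyz1 GRDim zinc lies below GRWT water.

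Epithelial genes known to respond to bacteria attached to the mucosa were called higher in 10 of 18 and lower in 2 (all genes 2.25% and 2.31%). Saa1, serum amyloid A, went from 3.18, 3.16 and 3.19 CPM to 47.3, 37.3 and 45.5 CPM (log2 change 3.77 ± 0.37 SE, adjusted p = 0.000325), and its near-identical copy Saa2 varied from 0.283, 1.16 and 0.519 to 21.1, 9.38 and 0.212 CPM and was not called (adjusted p = 0.09995). Nos2, the inducible nitric oxide synthase, rose from 24.2, 54.5 and 82.1 to 236, 269.9 and 182 CPM (log2 change 2.10 ± 0.38 SE, adjusted p = 0.00727). The hydrogen peroxide generator Duox2 (1.59, adjusted p = 0.000816) and its maturation factor Duoxa2 (2.08, adjusted p = 0.000557) rose together. Pigr, which carries IgA across the epithelium, rose from 2436, 2592 and 2691 to 6379.6, 6573 and 6039 CPM (log2 change 1.30 ± 0.081 SE, adjusted p = 1.02e-07). Ido1, a tryptophan-degrading enzyme, rose from 35.3, 36.4 and 37.3 to 117, 167 and 140.0 CPM (log2 change 1.96 ± 0.12 SE, adjusted p = 1.73e-06).

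Slc6a14, an amino acid transporter (chrX:21714896-21742355, plus strand), spread widely within GRDim zinc, at 59.3, 157 and 481 CPM against 39.2, 6.78 and 4.45 CPM in GRWT water (log2 change 3.79 ± 0.95 SE, adjusted p = 0.0288). GRDim zinc replicate 3 held most of it, and without that library the log2 change was 2.69 with an adjusted p of 0.0738; without GRWT water replicate 4 or 5 the adjusted p was 0.0927 or 0.0862, and without GRWT water replicate 1 the log2 change was 5.35. Plet1 also rested on replicate 3, with 2.05, 1.29 and 0.964 against 3.84, 3.99 and 9.24 CPM (log2 change 1.98 ± 0.52 SE, adjusted p = 0.0306, adjusted p = 0.0710 without replicate 3), and without GRWT water replicates 1, 4 or 5 the call was lost too (adjusted p 0.0571 to 0.0945). Its GRDim water mean was 101 ± 28.3 CPM. Asprv1, a skin-type protease, rose from 0.141, 0.129 and 0.297 to 1.05, 1.19 and 2.19 CPM (2.94, adjusted p = 0.000347). The members called lower were Reg3b, an antibacterial lectin (7799 ± 605 against 4360.4 ± 430.5 CPM, -0.84, adjusted p = 0.0240), and Pla2g2a, a phospholipase of Paneth cells (1441 ± 156 against 765 ± 129 CPM, -0.91, adjusted p = 0.00105). The 2 calls dropped to 1 or 0 on leaving out any library but GRDim zinc replicate 1. Reg3g was 1673 ± 242 against 1099.5 ± 39.6 CPM and did not pass the test (adjusted p = 0.0757). Cytokines of this response were near the counting limit: Il17a held no counts in GRWT water and 5, 6 and 5 in GRDim zinc, at least 1.69-fold above a floor of 3 counts per library, and Cxcl5 no counts and 5, 4 and 11, at least 2.12-fold.

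Transcripts of T and cytotoxic lymphocytes were higher, 14 of 16 markers being called (all genes 2.25%) and none lower, and 4 with the smooth muscle sum as a covariate. Cd3e, part of the T cell receptor complex, measured 3.82, 6.07 and 4.52 CPM against 12.6, 12.96 and 13.6 CPM (log2 change 1.43 ± 0.31 SE, adjusted p = 0.0103), and it overlaps a gene on the other strand. Cd8a rose from 9.75, 12.1 and 12.8 to 39.9, 38.9 and 31.96 CPM (log2 change 1.68 ± 0.14 SE, adjusted p = 7.73e-06), without overlap. Itgae, the integrin that anchors lymphocytes to E-cadherin, rose from 12.4, 16.7 and 16.3 to 39.4, 48.7 and 42.5 CPM (log2 change 1.52 ± 0.11 SE, adjusted p = 3.64e-07). The granzymes Gzma (1.32, adjusted p = 0.000800) and Gzmb (1.20, adjusted p = 0.00793) and the Fas ligand (1.30, adjusted p = 0.00156) rose as well, while Cd2 (0.77, adjusted p = 0.464) and Klrd1 (0.46, adjusted p = 0.0838) gave no call. The 16 markers summed to 94.2 to 144 CPM in GRWT water and to 304 to 313 CPM in GRDim zinc. In bulk libraries, more cells of a type and more RNA per cell cannot be told apart, here and for all cell types below. T cells are a main source of interferon gamma. The interferon lists and this sum were higher in the same 3 libraries, and the part of the lymphocytes in the interferon values was not tested.

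Of 10 B and plasma cell genes 4 were called higher, against 2.25% of all genes, and none lower. All 10 had a positive change, and 4 an adjusted p below 0.05 (all genes 18.1%). Jchain, which joins IgA dimers, went from 1447, 1844 and 1446 CPM to 3627, 3532 and 4457 CPM (log2 change 1.29 ± 0.17 SE, adjusted p = 0.000535), and Mzb1 (1.34, adjusted p = 0.0270), Tnfrsf17, the survival receptor BCMA (1.06, adjusted p = 0.00480), and Derl3 (0.91, adjusted p = 0.00448) were also called. The B cell surface gene Ms4a1 was not, at 0.749 ± 0.364 against 1.14 ± 0.478 CPM. Without GRWT water replicate 1, 2 of these 4 calls were left. Macrophage and mast cell genes gave no call in 13 tested with edgeR (1 with DESeq2), 5 of them with an unadjusted p below 0.05, against 32.4% of all genes. All 13 had a positive change, against 7859 of 15947 over all genes. The median of the 13 was 0.28, and 2 had an adjusted p below 0.05 (all genes 18.1%). Their summed level was 295 to 384 CPM in GRWT water and 350.1 to 479 CPM in GRDim zinc, and the neutrophil genes S100a8 and S100a9 were near 0 in both groups.

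Paneth cells secrete antimicrobial proteins at the crypt base. Their markers were lower in GRDim zinc, 8 of 11 tested (14 listed) being called lower and none higher, against 2.31% of all genes, with a median log2 change of -1.20. Lysozyme, Lyz1 (ENSMUSG00000069515, chr10:117287797-117292868, minus strand), stood at 3499, 3730.2 and 4514 CPM in GRWT water and at 2320.1, 1597 and 858 CPM in GRDim zinc. The groups did not overlap, though the GRDim zinc values spread widely and replicate 3 was the lowest (log2 change -1.30 ± 0.32 SE, adjusted p = 0.0252). The angiogenin Ang4, another bactericidal protein, fell from 481, 480.0 and 573 to 314, 231 and 126 CPM (log2 change -1.20 ± 0.28 SE, adjusted p = 0.0189). The alpha-defensin Defa24 fell from 1980.2, 1479.7 and 1859.7 to 1087, 731 and 657 CPM (log2 change -1.10 ± 0.18 SE, adjusted p = 0.00243), and Defa5, Defa17, Defa23, Defa26 and Defa30 fell by 1.18 to 1.29 on the log2 scale. These defensins are close copies of each other, so their counts are uncertain. Itln1 (-1.07, adjusted p = 0.0601) and Mmp7 (-0.62, adjusted p = 0.00938) were not called. The GRDim water mean of Lyz1 was 1102 ± 86.3 CPM and the GRWT zinc mean 3895 ± 762 CPM. The count of Paneth markers called lower dropped to 4 or 5 when GRDim zinc replicate 2 or GRWT water replicate 4 or 5 was left out.

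Other epithelial lineages gave few calls. None of 13 enteroendocrine, 7 tuft, 10 stem cell, 12 general epithelial, 9 ileal and 10 proximal small intestine genes tested was called by edgeR or DESeq2, with 7, 0, 4, 7, 2 and 4 of them at an unadjusted p below 0.05, against 32.4% of all genes. Of the 13 enteroendocrine genes 10 had a negative change, against 50.7% of all genes, 6 had an adjusted p below 0.05 in either direction, against 18.1%, and the median was -0.45. They summed to 584 to 598 CPM in GRWT water and 422 to 462 CPM in GRDim zinc, without overlap. The proximal small intestine genes also had separate sums, 4657 to 5566 against 2978 to 3697 CPM, with 7 of 10 negative, and so did the stem cell genes, 1148 to 1327 against 887 to 1139 CPM, with 9 of 10 negative and 3 at an adjusted p below 0.05. Of 12 goblet cell genes 10 had a negative change, 5 an adjusted p below 0.05, and the median was -0.23, with sums of 15870.4 to 16399.9 against 12132 to 14049 CPM. The mucin Muc2 stood at 822 ± 112 and 673 ± 71.4 CPM (log2 change -0.29, adjusted p = 0.205), and the glycosyltransferase B3gnt7 was the 1 gene called, rising from 21.8, 24.9 and 36.6 to 56.7, 85.5 and 77.7 CPM (log2 change 1.41 ± 0.20 SE, adjusted p = 0.00199). In the proliferation list 17 of 20 genes had an adjusted p below 0.05 with a positive change, against 9.29% of all genes, and none reached the fold limit, for example Top2a at 160.3 ± 25.3 against 244 ± 14.4 CPM (log2 change 0.60 ± 0.089) and Mki67 at 124 ± 17.3 against 169 ± 15.5 CPM (log2 change 0.45 ± 0.098). Fibroblast and endothelial genes, 6 each, gave no call, and of 12 genes of enteric neurons and glia, 11 of them negative with sums of 63.9 to 83.8 against 53.7 to 58.2 CPM, only S100b was called, at 1.65 ± 0.366 against 0.882 ± 0.177 CPM, a call lost on leaving out any 1 of the 6 libraries except GRWT water replicate 1. Smooth muscle genes belong to the tissue whose marker Myh11 chose the libraries, so they are only described and used as a covariate. They summed to 2663 to 2919 CPM in GRWT water and 1723 to 2282 CPM in GRDim zinc over 10 genes. The sum was lower in GRDim zinc, and with that sum as a covariate 230 genes were called higher and 153 lower. In that fit the immunity-related GTPases kept a count of 6, whereas the count of called T cell genes went from 14 to 4, of MHC class II genes from 7 to 2 and of chemokines from 3 to 1. With GRWT water replicates 4 and 5, the IEC-labelled ones, left out (3 against 1), 265 genes were higher and 221 lower, 9 T cell, 3 guanylate-binding protein and 1 Paneth gene were still called, and the lone GRWT water library was assumed to vary like the other groups.

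**Figure D3:**
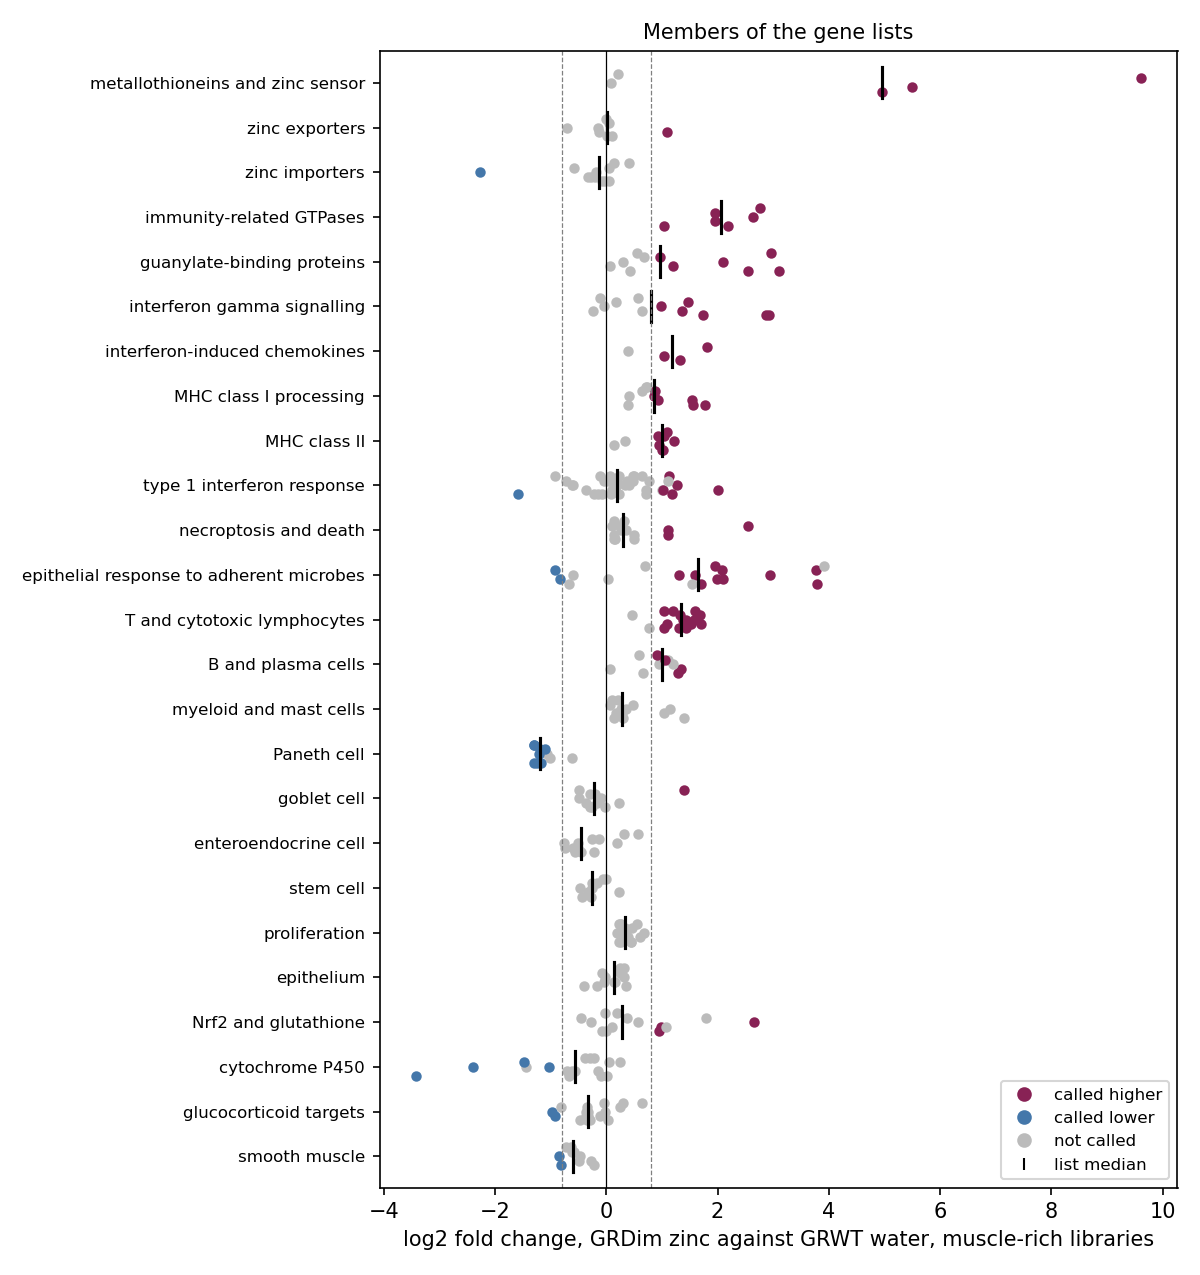
Log2 change of GRDim zinc over GRWT water in muscle-rich libraries for the members of 25 gene lists, 1 point per gene, coloured by call, with the list median as a black bar and dashed lines at the fold limit of 0.8. Points of the immunity-related GTPases and T cell lists lie right of 0, those of the Paneth list left of 0, and those of stem cell, general epithelial and proliferation lists inside the limits.

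The largest falls are given by what each gene does. Slc2a2, the facilitative glucose carrier GLUT2 (chr3:28697903-28731359, plus strand), fell from 2.90, 6.85 and 6.08 CPM to 0.527, 0.280 and 0 CPM (log2 change -4.28 ± 0.60 SE, adjusted p = 0.000818), without overlap. GRDim zinc lay near the floor of 3 counts, and leaving out 1 library gave -3.69 to -5.15, the latter without GRDim zinc replicate 1. Slc28a1, a sodium-coupled nucleoside transporter, fell from 4.10, 3.36 and 3.19 to 1.13, 0.910 and 0.282 CPM (log2 change -2.19 ± 0.39 SE, adjusted p = 0.00189). Cidec, a lipid droplet protein, fell from 16.2, 22.1 and 21.8 to 7.37, 4.62 and 4.09 CPM (log2 change -1.90 ± 0.43 SE, adjusted p = 0.0166), a call lost without GRDim zinc replicate 2 (adjusted p = 0.0603) or 3 (0.0667). Rdh16f2, a retinol dehydrogenase family member, fell from 5.94, 5.49 and 4.23 to 1.20, 1.82 and 0.917 CPM (log2 change -1.98 ± 0.29 SE, adjusted p = 0.000345). The summed markers of proximal small intestine given above were lower in the same libraries. Means in muscle-rich GRDim water were 0.119 ± 0.109 CPM for Slc2a2, 0.139 ± 0.145 for Slc28a1, 8.44 ± 3.78 for Cidec and 0.251 ± 0.177 for Rdh16f2. Those in muscle-rich GRWT zinc were, in the same order, 4.84 ± 1.03, 6.44 ± 1.30, 16.8 ± 8.03 and 4.73 ± 0.949 CPM. In GRWT zinc replicate 3, a muscle-poor library with 17.1 CPM of Fabp6, Slc2a2 measured 983, Slc28a1 318 and Cidec 169 CPM. The part of the intestinal segment in these falls was not tested.

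Cyp1a1, the detoxifying enzyme induced by the aryl hydrocarbon receptor (chr9:57687928-57703824, plus strand), fell from 15.2, 10.98 and 3.26 CPM to 0.903, 0.770 and 1.06 CPM (log2 change -3.42 ± 0.71 SE, adjusted p = 0.0113). Its GRDim water mean was 0.308 ± 0.320 CPM and its GRWT zinc mean 4.15 ± 2.09 CPM. Cyp3a44, a member of the drug-metabolising CYP3A family, fell from 62.1, 54.6 and 36.04 to 10.6, 14.99 and 3.32 CPM (log2 change -2.40 ± 0.57 SE, adjusted p = 0.0228), but the call was lost on leaving out any of GRDim zinc replicates 1 and 3 or GRWT water replicates 1 and 4 (adjusted p 0.0549 to 0.0637). Cyp2d26 (-1.03, adjusted p = 0.00202) and Cyp4b1 (-1.47, adjusted p = 9.58e-07) completed the 4 of 17 cytochrome P450 genes called lower (all genes 2.31%), and none was called higher. The abundant Cyp3a11 stood at 259 ± 31.2 against 222 ± 92.9 CPM (-0.22, adjusted p = 0.752).

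The remaining falls of the first 12 belonged to varied families. Spsb4, a ubiquitin ligase adaptor, measured 7.00, 5.23 and 3.34 CPM against 0.527, 0.560 and 0.776 CPM (log2 change -3.04 ± 0.33 SE, adjusted p = 2.42e-05). Zmat4, a zinc finger protein, measured 7.35, 6.33 and 6.16 against 0.903, 1.19 and 1.13 CPM (log2 change -2.61 ± 0.22 SE, adjusted p = 1.85e-06). Plscr2, a phospholipid scramblase, measured 16.1, 7.81 and 5.19 against 1.96, 1.75 and 1.41 CPM (log2 change -2.51 ± 0.44 SE, adjusted p = 0.00413). All 3 had separate groups, and GRDim water means of 0.380 ± 0.227, 0.482 ± 0.185 and 1.24 ± 0.312 CPM lay below GRWT water, too. Tmem229a (-2.03 ± 0.28 SE, adjusted p = 0.000244) and the heat shock protein Hspa1a (-2.01 ± 0.33 SE, adjusted p = 0.000901), whose values were 3.46, 2.91 and 6.53 against 0.903, 0.980 and 1.27 CPM, complete the list. 1700057G04Rik, left out of the list for its provisional name and picked after its values were seen, held 85, 96 and 86 counts in GRWT water and 0, 1 and 2 in GRDim zinc, a ratio of 87.8 (95% interval from counting 29.7 to 428).

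Among the rises not yet described, Hapln1, a link protein of the hyaluronan matrix, went from 0.353, 0.904 and 0.445 CPM to 6.17, 14.6 and 26.9 CPM (chr13:89539796-89611652, plus strand; log2 change 4.76 ± 0.61 SE, adjusted p = 0.00103, and 4.16 without GRDim zinc replicate 3). Abca12, a lipid transporter of keratinocytes, rose from 1.84, 1.16 and 0.667 to 10.1, 10.2 and 12.98 CPM (log2 change 3.17 ± 0.24 SE, adjusted p = 1.02e-06). Ceacam10, of the carcinoembryonic antigen family, rose from 8.34, 4.84 and 6.30 to 54.4, 56.2 and 63.6 CPM (log2 change 3.17 ± 0.14 SE, adjusted p = 8.68e-08). No value of one group reached the other in these genes, and the GRDim water means were 20.2 ± 1.89, 16.1 ± 0.854 and 113 ± 6.43 CPM.

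Of 18 glucocorticoid targets, 14 had a negative change, against 50.7% of all genes, with a median of -0.33. An adjusted p below 0.05 was reached by 9, against 18.1% of all genes. With the fold limit 2 were called lower, against 2.31%, and none higher: Klf15, a metabolic transcription factor (5.80, 4.97 and 3.71 against 2.48, 2.80 and 2.12 CPM, log2 change -0.97 ± 0.20 SE, adjusted p = 0.00480), and Pdk4, which restrains pyruvate oxidation (3.53, 6.33 and 4.82 against 3.09, 1.89 and 2.82 CPM, -0.92 ± 0.27 SE, adjusted p = 0.0301). A single call was left without GRDim zinc replicate 2 or GRWT water replicate 4 or 5. The widely used GR targets Fkbp5 (82.4 ± 13.8 against 65.1 ± 7.11 CPM, -0.34, adjusted p = 0.0719), Tsc22d3, or GILZ (-0.36, adjusted p = 0.0173), and Per1 (-0.015, adjusted p = 0.961) were not called. Sgk1, a GR-induced kinase, measured 329, 282 and 322 CPM against 297, 247 and 189 CPM, which overlapped (log2 change -0.35 ± 0.21 SE, adjusted p = 0.297), and its GRDim water mean was 79.6 ± 16.5 CPM. Among steroid receptors and enzymes, Esr1 (-0.91, adjusted p = 0.00365) and Hsd3b3, a 3-beta-hydroxysteroid dehydrogenase (19.01, 12.1 and 12.9 against 4.52, 4.55 and 4.94 CPM, log2 change -1.65 ± 0.21 SE, adjusted p = 0.000145), were lower of 9 tested. Hsd3b3 overlaps a gene on the other strand. No circadian clock gene of 15 was called, Per2 being the furthest with an adjusted p below 0.05 (-0.75, adjusted p = 0.00504).

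Of 12 iron and copper genes 1 was called higher and 1 lower, against 2.25% and 2.31% of all genes. An adjusted p below 0.05 was reached by 7 of the 12, against 18.1% of all genes. Tfrc, the transferrin receptor that brings iron into cells, rose from 201, 199 and 200.2 to 511, 512 and 430.0 CPM, without overlap (log2 change 1.28 ± 0.13 SE, adjusted p = 5.94e-05). The copper exporter Atp7b fell (4.77 ± 0.263 against 2.56 ± 0.781 CPM, -0.90, adjusted p = 0.00703), and 10 other iron and copper genes gave no call, Slc40a1, the iron exporter ferroportin, being 211 ± 12.8 against 212 ± 33.4 CPM. Of 14 Nrf2 and glutathione genes, 3 rose (all genes 2.25%), namely Nqo1 (33.9, 34.7 and 35.9 against 75.7, 68.9 and 62.01 CPM, log2 change 0.98 ± 0.21 SE, adjusted p = 0.0123), Gstm1 (0.94, adjusted p = 8.76e-06) and Gsta1 (0.420 ± 0.0875 against 2.70 ± 0.575 CPM, 2.66, adjusted p = 0.0321). The sensor gene Nfe2l2 was 212 ± 2.22 against 212 ± 9.24 CPM and Hmox1 was 2.52 ± 0.897 against 2.48 ± 0.813 CPM.

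Liver transcripts differed between the libraries. Ttr, the carrier of thyroxine and retinol that the liver secretes, was among the 12 largest rises (0.919, 1.61 and 0.742 against 12.2, 8.89 and 3.17 CPM, log2 change 2.86 ± 0.59 SE, adjusted p = 0.00954). Alb, albumin, measured 1.48, 7.36 and 3.49 CPM in GRWT water and 154, 65.8 and 1.76 CPM in GRDim zinc, so 2 of the 3 GRDim zinc libraries were high and replicate 3 lay within the range of GRWT water. Over 12 liver genes, listed after the data had been seen, the sum was 8.71 to 21.7 CPM and 10.9 to 368 CPM. Of the 11 tested, 3 were called higher, against 2.25% of all genes. All 11 had a positive change, with a median of 3.41. With GRDim zinc replicates 1 and 2 left out, which leaves 1 library against 3 and takes its spread from the other groups, the log2 change of Ttr was 1.52 with an adjusted p of 0.147, and 254 genes were called higher and 307 lower. In the muscle-poor libraries Ttr was 0.914 and 0.503 CPM in GRWT water and 4.30, 3.59 and 4.25 CPM in GRDim zinc, without overlap but not called (2.51 ± 0.42 SE, adjusted p = 0.169), where Alb was 0 in both GRWT water libraries and 0.0705, 0.0678 and 0 CPM in GRDim zinc. The source of this RNA was not tested.

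The same comparison in muscle-poor libraries, 3 GRDim zinc against 2 GRWT water fitted and scaled apart, gave 8 genes called higher and 3 lower of 13908 tested (0.0791%), with 905 at an unadjusted p below 0.05. These counts were 49 and 51 without GRWT zinc replicate 3, a library outside the comparison that enters the shared dispersion, and 40 and 45 with the 5 libraries alone. Of the 359 genes called higher in the muscle-rich libraries, 292 were tested there, 92 (31.5%) had the same sign and 4 were called. Of the 368 called lower, 258 were tested, 122 (47.3%) had the same sign and 1 was called. Over all 13748 genes tested in both, 46.7% had the same sign. The 5 genes called in both were Mt1, Mt2, Mt4, Slc39a4 and Gbp6. All 5 were also among the 15 called in both without GRWT zinc replicate 3 and the 12 with the 5 libraries alone, whereas leaving out 1 of the 5 libraries left 4 to 0 of them, none without GRWT water replicate 3. With all 22 libraries in 1 fit and the Myh11 split as covariate, 44 genes were called higher and 18 lower, and no immunity-related GTPase, T cell or Paneth gene was among them, while the 3 metallothioneins were.

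Mt1, Mt2, Mt4 and Slc39a4 changed in the same direction in both kinds of library. Mt1 in muscle-poor libraries was 152 and 149 CPM in GRWT water and 1187, 1121 and 1407 CPM in GRDim zinc (log2 change 3.04 ± 0.31 SE, adjusted p = 0.0104), and Slc39a4 was 308 and 306 against 84.97, 82.9 and 74.2 CPM (-1.93 ± 0.15 SE, adjusted p = 0.00183). Gbp6 was 1.37 and 1.01 against 16.3, 8.68 and 8.57 CPM (3.23 ± 0.37 SE, adjusted p = 0.0248). Most other interferon genes did not differ in this direction, and muscle-poor GRWT water libraries held levels near those of GRDim zinc. Igtp was 162 and 269 CPM in GRWT water and 135, 195 and 222 CPM in GRDim zinc (-0.23 ± 0.30 SE, adjusted p = 0.972). Zbp1 was 70.8 and 101 against 48.6, 55.4 and 76.5 CPM (-0.51 ± 0.24 SE, adjusted p = 0.782) and Ubd 223 and 306 against 115, 120.3 and 196 CPM (-0.88 ± 0.41 SE, adjusted p = 0.774). None of the 6 immunity-related GTPases had a positive change there, with a median of -0.72, and their sum was 452 to 772 CPM in muscle-poor GRWT water and 387 to 528 CPM in GRDim zinc, against 134 to 174 and 465 to 657 CPM in the muscle-rich libraries.

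No T cell or Paneth cell gene was called in the muscle-poor libraries, where only 0.0791% of all genes were, so the absence says little about these lists. Cd8a was 32.1 and 47.6 CPM in GRWT water and 28.1, 33.4 and 49.7 CPM in GRDim zinc (-0.10 ± 0.40 SE, adjusted p = 0.999), and Lyz1 was 1779 and 2580.2 CPM in GRWT water and 2175, 1786 and 1469.7 CPM in GRDim zinc (-0.27 ± 0.26 SE, adjusted p = 0.946). The T cell list had a median of -0.21 and the Paneth list of -0.14. A test of the difference between both comparisons over all 22 libraries gave 462 of 16389 genes (2.82%) with an adjusted p below 0.05, and 1958 of 16868 without GRWT zinc replicate 3. Among the 462 were Zbp1 (difference 3.07 ± 0.31 log2, adjusted p = 3.02e-05) and Nlrc5 (3.40 ± 0.52, 0.00137). In GRDim zinc every muscle-rich library was labelled ileum and every muscle-poor one IEC, so that muscle content and tissue label cannot be told apart there.

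**Figure D4:**
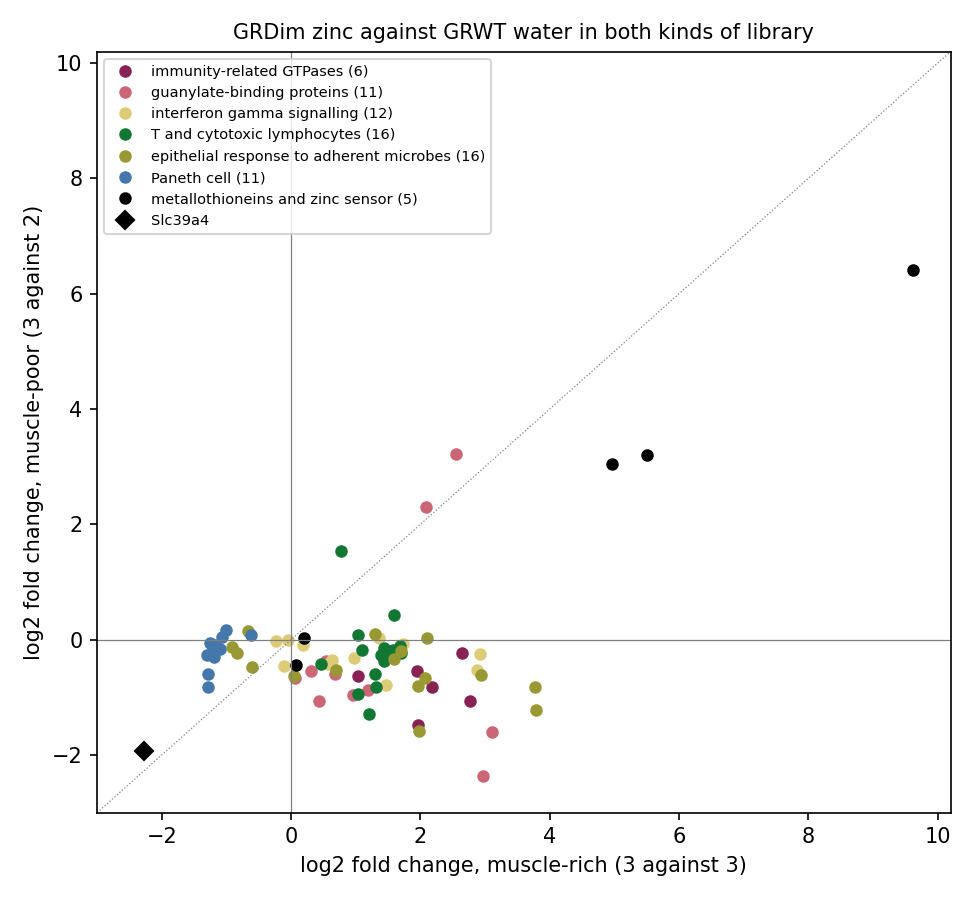
Log2 change of GRDim zinc over GRWT water in muscle-rich libraries (x axis, 3 against 3) and in muscle-poor libraries (y axis, 3 against 2) for members of 7 gene lists and Slc39a4, with the dotted line for equal values. Mt1, Mt2, Mt4 and Slc39a4 lie on the same side of 0 on both axes, and most interferon and T cell genes lie right of 0 on the x axis and at or below 0 on the y axis.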

How the data were processed

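Bulk RNA-seq of mouse small intestine was analysed from 1 deposited table of read counts per gene, 22 libraries and 54838 genes, 54723 of which matched GENCODE vM21 names and positions (GRCm38/mm10). According to the paper's methods and the labels, the authors made stranded single-end libraries, trimmed reads with Trimmomatic, mapped them to mm10 with HISAT2 2.0.4 and counted them with featureCounts, leaving out multimapping reads; annotation release and strand setting are not given in the sources used here. The counts are raw, not normalised.

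Genes passing filterByExpr in the 12 libraries with Myh11 above 100 CPM, 3 per condition, were scaled by TMM and tested with the quasi-likelihood F test of edgeR 4.0.16 (R 4.3.3, robust dispersion), with Benjamini-Hochberg adjusted p-values across every tested gene, and called at 0.05 with a log2 change beyond 0.8, the cut-offs the study used. DESeq2 1.42.0, the authors' tool, other scalings, filters, covariates and left-out libraries were tried as alternatives. The SE is the log2 change divided by the root of F. The quasi-likelihood fit was also run on simulated counts, and the outcome is not reported here. Counting intervals and floors use 95% and 3 counts. Named genes are the 12 largest rises and 12 largest falls among called genes without overlap and with a mean of at least 3 CPM in the higher group, leaving out receptor segments and provisional names, plus members of 34 gene lists; liver genes were added after the data were seen. Members and lists were chosen with earlier results of these data known. No library pair differed by less than sampling noise (chi-square per degree of freedom 4.17 to 11.8). Among the muscle-rich libraries GRWT zinc replicate 1 stood apart on the third principal component, with 63.5 CPM of the B cell gene Ms4a1. It is outside the comparison, but enters the filter, the scaling, the shared dispersion and the GRWT zinc means. No lists were tested as sets. Some genes of the lists are counted but not reported here by name.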

Additional observations from a re-analysis of the deposited data

Results flagged for a closer look

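The change from GRWT water to GRDim zinc differed between muscle-rich and muscle-poor libraries for 15 of 31 described genes, by an interaction test over all 22 libraries (edgeR, adjusted over 16389 genes, 2.82% of which passed). Of the 31 genes, 24 were chosen for a large change in the muscle-rich libraries, which is 1 arm of this difference, so their count is raised by that choice and is only a description. Values are the muscle-rich minus the muscle-poor log2 change ± SE. In the interferon genes the difference was 6.16 ± 0.73 for Ubd (adjusted p = 0.000214), 3.83 ± 0.74 for Tgtp1 (0.00713), 3.40 ± 0.52 for Nlrc5 (0.00137), 3.07 ± 0.31 for Zbp1 (3.02e-05), 2.06 ± 0.43 for Cxcl9 (0.0133), 1.501 ± 0.17 for Mlkl (7.89e-05) and 0.70 ± 0.16 for Ripk3 (0.0216).

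In the genes of epithelial defence and barrier it was 5.02 ± 1.19 for Slc6a14 (adjusted p = 0.0314), 4.60 ± 0.98 for Saa1 (0.0164), 3.29 ± 0.76 for Ceacam10 (0.0262) and 3.42 ± 0.75 for Abca12 (0.0175). For Hapln1 it was 4.91 ± 1.04 (0.0156). Mt1 rose in both kinds of library, more so in the muscle-rich ones (1.92 ± 0.41, 0.0163). Among the genes that fell, the difference was -2.56 ± 0.64 for Hspa1a (0.0389) and -2.96 ± 0.75 for Rdh16f2 (0.0398). Without GRWT zinc replicate 3, a muscle-poor library with little Fabp6, 1958 of 16868 genes passed this test. Of the 31 described genes 22 then passed, the 15 above included. Among the 12 that fell, 7 passed in place of 2, the added ones being Slc2a2 (adjusted p = 0.00825), Spsb4 (0.0205), Zmat4 (0.00274), Plscr2 (0.0327) and Slc28a1 (0.00130).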

How the results depend on the processing

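The 359 genes called higher and 368 called lower became 44 and 18 with all 22 libraries and the Myh11 split as covariate, 230 and 153 with the smooth muscle sum as covariate, 265 and 221 without GRWT water replicates 4 and 5, which keeps only libraries labelled ileum in both groups, and 1482 and 1410 with no fold limit. Leaving out each library in turn gave 249 to 328 and 291 to 319. DESeq2 gave 409 and 276, its size factors 355 and 371, upper-quartile factors 331 and 401, a weaker filter 350 and 381, a stricter one 320 and 316, the 6 libraries alone 423 and 322, and the tissue label as covariate 246 and 285. Settings added after seeing the data gave 254 and 307 (without GRDim zinc replicates 1 and 2) and 483 and 383 (without GRWT zinc replicate 1). In muscle-poor libraries, 8 and 3 became 40 and 45 with the 5 libraries alone, 49 and 51 without GRWT zinc replicate 3, and 2 to 6 and 0 to 1 on leaving out each library. Of the 31 described genes only Nr3c1, which was not called, changed sign (-0.028), to 0.057 with the tissue label as covariate and 0.037 without GRDim zinc replicate 3. With the 22 libraries, 21 of 31 described genes lost their call (the cause was not tested), and 10 kept their side of the threshold, Mt1, Mt2, Mt4, Slc39a4 and Slc30a2 among them. In that fit the members called higher were 0 for the immunity-related GTPases and 0 for the T cell genes, and 0 Paneth genes were called lower. The smooth muscle covariate ended the calls of Slc6a14, Ttr, Cyp1a1, Plscr2, Hspa1a, Cidec, Slc30a2, Cxcl9 and Plet1 (log2 changes 5.26, 1.51, -2.72, -2.52, -0.80, -1.31, 0.92, 1.58 and 2.56, as large as before or larger for Slc6a14, Plscr2, Cxcl9 and Plet1), the tissue label those of Slc6a14, Ttr, Cidec and Plet1, leaving out GRWT water replicates 4 and 5 these and Cyp3a44 and Slc30a2, and leaving out GRDim zinc replicates 1 and 2, which leaves 1 library against 3, those of Ttr, Cyp1a1, Plscr2, Cyp3a44, Hspa1a, Cidec and Slc30a2 (log2 changes 1.52, -3.20, -2.77, -3.94, -1.74, -2.29 and 0.77). The 6 libraries alone ended those of Slc6a14 (log2 change 3.79, adjusted p = 0.135) and Cyp3a44 (-2.40, 0.0576), and the weaker filter that of Plet1 (0.0573). With the tissue label as covariate the log2 change was 2.74 for Slc6a14 and 2.55 for Ttr. Without GRWT water replicates 4 and 5 it was 2.57 for Slc6a14, 3.12 for Ttr and -2.69 for Cyp3a44. The largest shift of the median log2 change by a scaling was -0.027. No paired analysis was possible because the 2 groups of 3 share only replicate number 1. Genes under the 3-count floor of 0.197 to 0.224 CPM are limited by depth.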
